A study of Mus musculus with 6 samples.

Results

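Dual-specificity phosphatases remove phosphate from both threonine and tyrosine, and the MAP kinase phosphatases among them switch off ERK, JNK and p38. The 8 genes described here are Dusp1, Dusp2, Dusp4, Dusp5, Dusp6, Dusp10, Dusp11 and Dusp12, taken by symbol from 48709 genes in the deposited table, where each symbol names 1 row. The table holds RNA-seq of invariant natural killer T (iNKT) cells, lipid-recognising T cells with a semi-invariant receptor, sorted from mouse spleen in the resting state. The labels describe 6 samples, 3 WT and 3 Gpx4 cKO, a conditional knockout of the lipid peroxidase gene Gpx4. Not given in the sources used here are the promoter that drives the deletion, the age and strain of the mice, and whether samples came from separate animals. The table's 6 libraries, numbered 18 to 23, carry names found in none of the labels, so 0 of 6 could be assigned to WT or Gpx4 cKO and the genotypes are not compared. Values are given library by library.

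In T cells, receptor signalling through Ras and the MAP kinases induces several of these phosphatases, which then limit the same kinases as negative feedback. Dusp1, Dusp2, Dusp4 and Dusp5 encode inducible nuclear enzymes, Dusp6 encodes a cytoplasmic enzyme that prefers ERK, and Dusp10 encodes one that prefers JNK and p38. Dusp11 and Dusp12 are atypical members: the first encodes an RNA 5′ phosphatase and the second carries a zinc-binding domain, and neither is an established MAP kinase phosphatase. The shared description as MAP kinase brakes therefore fits the first 6 genes by background knowledge and was not measured here.

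Promoter sequences are shown for Dusp1 and Dusp5, whose lowest levels were in library 19, and for Dusp2 and Dusp6, whose highest levels were in that library. RefSeq promoters on GRCm38.p6 were found for 7 of the 8 genes, all but Dusp4, and searched in the 250 bases before the start. The stretches below end where the gene begins in the deposited table. That is also the RefSeq start for Dusp2 and Dusp6, while the RefSeq start lies 47 bases further on for Dusp1 and 36 bases further on for Dusp5. Capitals mark matches to the motifs searched.
Dusp1: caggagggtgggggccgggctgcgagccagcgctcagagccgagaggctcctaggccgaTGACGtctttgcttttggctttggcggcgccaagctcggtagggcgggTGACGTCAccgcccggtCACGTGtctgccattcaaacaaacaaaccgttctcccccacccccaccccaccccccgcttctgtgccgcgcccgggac
Dusp5: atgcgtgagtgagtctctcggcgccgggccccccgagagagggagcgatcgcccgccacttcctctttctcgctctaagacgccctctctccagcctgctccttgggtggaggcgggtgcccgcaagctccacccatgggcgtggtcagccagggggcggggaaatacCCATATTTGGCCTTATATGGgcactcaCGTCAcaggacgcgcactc
Dusp2: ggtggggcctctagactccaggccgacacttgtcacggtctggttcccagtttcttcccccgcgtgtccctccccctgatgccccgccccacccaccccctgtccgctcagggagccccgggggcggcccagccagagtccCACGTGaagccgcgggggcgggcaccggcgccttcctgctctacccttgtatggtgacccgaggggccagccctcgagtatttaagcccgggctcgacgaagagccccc
Dusp6: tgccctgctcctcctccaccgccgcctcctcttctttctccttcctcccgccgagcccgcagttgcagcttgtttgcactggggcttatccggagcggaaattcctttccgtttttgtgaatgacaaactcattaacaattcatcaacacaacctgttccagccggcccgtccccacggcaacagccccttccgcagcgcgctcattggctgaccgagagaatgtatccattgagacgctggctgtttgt
They lie at chr17:26508520-26508722 on the minus strand for Dusp1 and, on the plus strand, at chr19:53528895-53529108 for Dusp5, chr2:127335909-127336158 for Dusp2 and chr10:99262981-99263230 for Dusp6.

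The motifs were searched on both strands: the cyclic AMP response element (TGACGTCA), its shorter core (TGACG), the AP-1 site (TGANTCA), the E-box (CACGTG) and the CArG box bound by serum response factor. A full response element holds this core on each strand. Dusp1 held a full response element 143 bases before its RefSeq start, a form found in 1.55% of 32851 promoters of the same length, and a further core. Dusp5 held 2 adjacent CArG boxes, CCATATTTGG and CCTTATATGG, which print as a single run of capitals, and a core. Of all promoters 1.47% held a CArG box and 17.8% a core. Dusp1 and Dusp2 each held an E-box, found in 6.02% of promoters. The Dusp6 window held none of these motifs. Nor did those of Dusp12 and of Dusp10, which like Dusp1 and Dusp5 was lowest in library 19, while Dusp11 held a core. The AP-1 letters, found in 6.75% of promoters, were in none of the windows searched. A match describes letters in this window and not a bound site.

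Library depth and cell markers set the frame for these values. Total exon reads ranged from 903524 in library 21 to 10122187 in library 19. Levels are CPM, exon reads per 1000000 on library sizes corrected by TMM, and intervals are 95% exact Poisson intervals that cover counting error only. A count of 0 allows up to 0.282 CPM in the deepest library (19) and 3.62 CPM in the shallowest (21). Gpx4 was read in all libraries at 3.20 CPM (library 19) to 31.3 CPM (library 20), and no library was assigned from its level. The T cell and iNKT markers Cd3e (764 to 924 CPM), Zbtb16 (245 to 357 CPM) and Trav11 (49.5 to 81.6 CPM) were present throughout, and all 11 markers of that list were read. The sum of B cell markers was 986 and 1979.6 CPM in libraries 18 and 19, and 3901 to 5241 CPM in the other 4, mostly from the immunoglobulin gene Igkc. Erythroid markers, led by Hbb-bs, summed to 4.46 and 5.18 CPM in libraries 18 and 19 and to 66.4 to 294 CPM in the others. Monocyte and macrophage markers summed to at most 7.24 CPM (Cd68 leading), neutrophil markers to at most 4.22 CPM (Mpo, with S100a8 at 0 in all libraries), platelet markers to at most 15.8 CPM (Itga2b) and dendritic cell markers to at most 18.1 CPM (Siglech). Foxp3 of regulatory T cells ranged from 6.63 to 12.1 CPM, and the CD8 list summed to at most 2.95 CPM (Cd8b1).

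Dusp1 was the most abundant of the 8 genes and Dusp4 the least. On deposited RPKM, a read count per kilobase of exon and depth, Dusp1 had a median of 134.7 (78.4 to 177) and stood above every other member in all 6 libraries. Dusp5 followed at 25.7 and Dusp6 at 17.3, then Dusp11 at 14.6, Dusp2 at 13.8 and Dusp10 at 9.60. Dusp12, at 2.21, and Dusp4, at 0.491, were the lowest. The ranges of Dusp5, Dusp6, Dusp11, Dusp2 and Dusp10 overlapped between each pair of neighbours, and Dusp11 exceeded Dusp2 in only 4 of 6 libraries. Dusp10 exceeded Dusp12 in 6 of 6 libraries with no overlap, whereas Dusp12 exceeded Dusp4 in 5 of 6, the exception being library 21. The deposited exon lengths merge all transcripts of a gene, 7639 bases for Dusp11 against 6435 for its coding transcript in GENCODE M21, and 2697 against 1990 for Dusp1. On coding transcript lengths, a choice made after seeing the data, all 28 pairs of members kept the same order of medians.

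**Figure D1:**
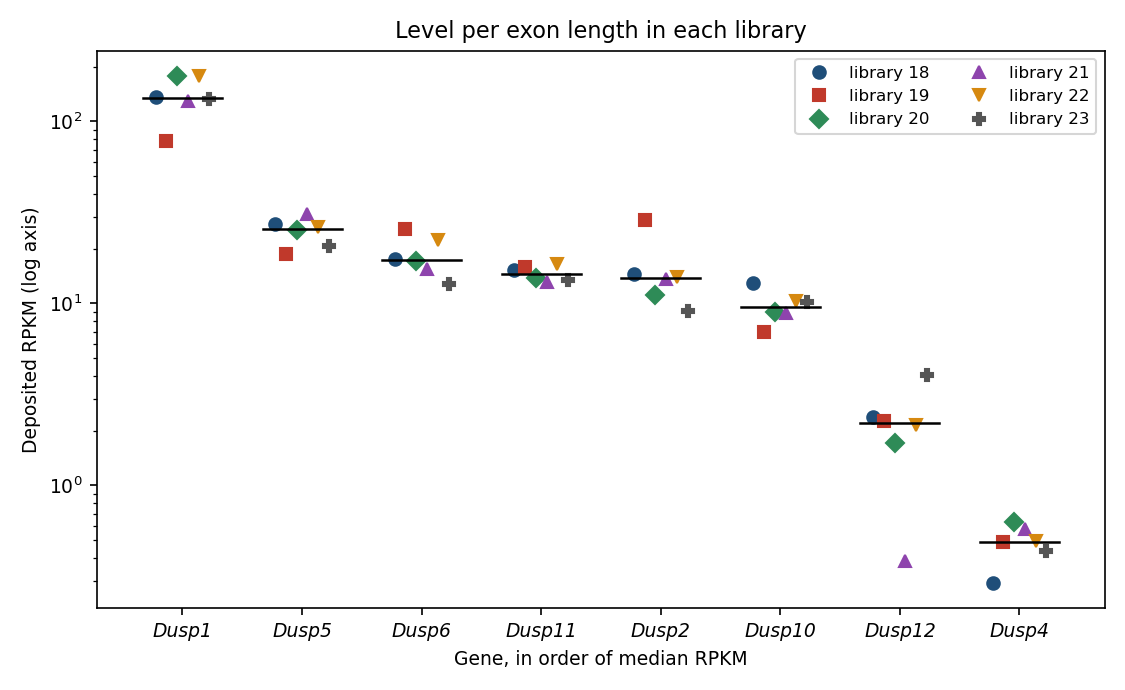
Deposited RPKM (log axis) of each gene in the 6 libraries, with genes in order of their median (black bars). Dusp1 lies between 78.4 and 177, and the ranges of the next 5 genes overlap between each pair of neighbours. Library 19 gives the highest point of Dusp2 and Dusp6 and the lowest of Dusp1, Dusp5 and Dusp10.

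Dusp1, Dusp2, Dusp5, Dusp6, Dusp10 and Dusp12 varied between libraries beyond counting error, and Dusp11 did not pass the test. The test was a chi-square test of exon reads against library size, with Benjamini-Hochberg adjustment over all 9042 genes that had at least 200 reads in total. Dusp4, with 88 reads, was not tested. Thus 6 of the 7 members tested passed, beside 71.6% of all genes tested, so the count itself is close to the background. Of the 7, 3 spanned more than 2-fold, beside 27.1% of all genes, and their median ratio of highest to lowest level was 1.99, beside 1.58 for all genes. The test says nothing about genotype. The intervals given below with a ratio of highest to lowest level, of exon or intron reads, compare the pair of libraries with those levels. They do not allow for the choice of that pair as the extremes. Such an interval can therefore exclude equal levels where the test does not pass, as for Dusp11.

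Among the inducible nuclear enzymes, Dusp1, which acts mainly on p38 and JNK as well as ERK, was lowest in library 19. It lies on chromosome 17 at 26505590 to 26508519 on the minus strand (ENSMUSG00000024190, GRCm38). Its level was 773, 419, 1156, 799, 969.9 and 787 CPM in libraries 18 to 23 in turn. Libraries 18, 21 and 23 overlapped within their intervals, library 19 lay far below them, and libraries 20 and 22 lay above. The highest level was 2.76 times the lowest (95% interval 2.66 to 2.87; chi-square 3097 with 5 degrees of freedom), and 13.2% of genes tested had a wider range. Without library 19 the ratio was 1.49. On deposited RPKM it was 2.26.

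Dusp2, an inducible nuclear phosphatase of activated lymphocytes, showed the opposite extreme in the same library. It lies on chromosome 2 at 127336159 to 127338376 on the plus strand (ENSMUSG00000027368). Its level was 61.3, 114, 54.0, 62.8, 57.04 and 40.1 CPM in libraries 18 to 23 in turn. Library 19, with an interval of 107 to 120 CPM, lay above all others, and library 23, at 31.6 to 50.2 CPM, was lowest. Its highest level was 2.83 times its lowest (2.25 to 3.62; chi-square test, adjusted p = 2.47e-65), and without library 19 the ratio was 1.57 (adjusted p = 0.0135).

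Dusp5, a nuclear phosphatase that is specific for ERK, was again lowest in library 19. It lies on chromosome 19 at 53529109 to 53542431 on the plus strand (ENSMUSG00000034765). Levels were 141, 91.4, 151, 175, 131 and 113 CPM in libraries 18 to 23 in turn. The interval of library 19 (85.8 to 97.4 CPM) did not reach that of library 23 (98.2 to 129 CPM), the next lowest. Levels spanned a ratio of 1.91 (1.60 to 2.28; chi-square test, adjusted p = 1.81e-32). Dusp4, an inducible nuclear phosphatase of ERK and JNK on chromosome 8 at 34807297 to 34819894 on the plus strand (ENSMUSG00000031530), was scarce. It had 14, 28, 23, 3, 15 and 5 exon reads in libraries 18 to 23, or 1.69 to 4.18 CPM. Its highest level was 2.48 times its lowest (1.22 to 5.21), or 1.59 times without library 18, and tested among genes with at least 50 reads it did not pass (chi-square test, adjusted p = 0.193).

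Dusp6, the cytoplasmic ERK phosphatase, was highest in library 19 like Dusp2, but with a narrower spread. It lies on chromosome 10 at 99263231 to 99267488 on the plus strand (ENSMUSG00000019960). Levels were 103, 142, 116, 99.0, 128 and 78.0 CPM in libraries 18 to 23 in turn. The intervals of library 19 (135 to 149 CPM) and library 22 (118 to 137 CPM) overlapped slightly. No test compared that pair alone. Over all libraries the ratio of highest to lowest was 1.82 (1.53 to 2.16; chi-square test, adjusted p = 3.79e-18).

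Dusp10, the phosphatase of JNK and p38, was lowest in library 19 and highest in library 18. It lies on chromosome 1 at 184013302 to 184075636 on the plus strand (ENSMUSG00000039384), the longest of the 8 genes at 62335 bases. Its level was 83.2, 41.8, 66.2, 61.5, 64.1 and 68.0 CPM in libraries 18 to 23 in turn. The interval of library 19 (38.01 to 45.9 CPM) lay below those of libraries 18, 20, 22 and 23 and reached that of library 21 (45.8 to 80.9 CPM). The ratio of highest to lowest was 1.99 (1.77 to 2.25; chi-square test, adjusted p = 7.48e-26).

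The atypical members stood at either end of the spread. Dusp11, on chromosome 6 at 85942268 to 85961667 on the minus strand (ENSMUSG00000030002), had levels of 247, 239, 255.4, 230.5, 255.5 and 226 CPM in libraries 18 to 23 in turn. Its ratio of highest to lowest was 1.13 (1.01 to 1.26; chi-square test, adjusted p = 0.095), and 98.2% of genes tested spanned a wider range. Scaled to total exon reads instead of TMM, it passed at a ratio of 1.22 (adjusted p = 0.0264). Dusp12, on chromosome 1 at 170873498 to 170885540 on the minus strand (ENSMUSG00000026659), had 114, 131, 62, 2, 65 and 46 reads in libraries 18 to 23. These gave 13.7, 12.3, 11.3, 2.41, 12.0 and 24.3 CPM, so 4 libraries lay close together, with library 21 below and library 23 above them. The ratio of 10.05 rests on 2 reads in library 21 and has an interval of 2.63 to 85.5 (chi-square test, adjusted p = 9.41e-05). Without library 21 it was 2.14, and without library 23 it was 5.70 and no longer passed (adjusted p = 0.101).

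**Figure D2:**
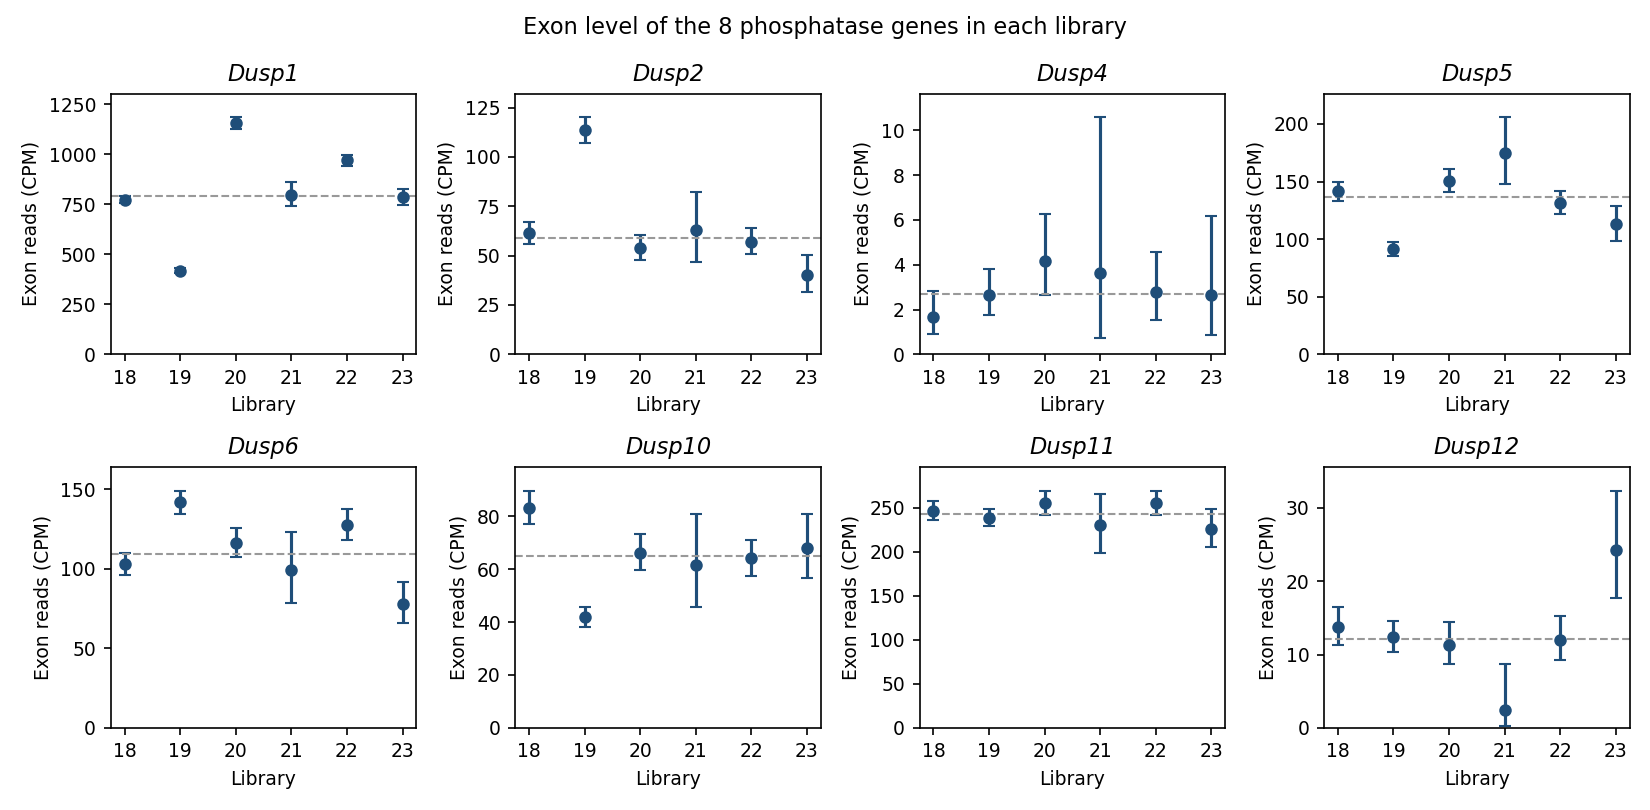
Exon level (CPM, linear axes from 0) of each gene in libraries 18 to 23, with 95% exact Poisson intervals and the median as a dashed line. Library 19 is lowest for Dusp1 (419 CPM), Dusp5 (91.4 CPM) and Dusp10 (41.8 CPM) and highest for Dusp2 (114 CPM) and Dusp6 (142 CPM), while Dusp11 is nearly level.

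The levels of these genes relative to Dusp2 are given as ratios of reads within a library, which need no scaling for depth. The pairs were chosen for their opposite extremes in library 19, so a low ratio there restates those levels and does not show which gene of a pair stands apart. Reads of Dusp1 were 12.6 times those of Dusp2 in library 18, 3.69 times (3.46 to 3.93) in library 19, 21.4 times in library 20, 12.7 times (9.59 to 17.2) in library 21, 17.0 times in library 22 and 19.6 times in library 23. Library 19 lay below every other interval. The ratio of Dusp5 to Dusp2 was 0.805 (0.739 to 0.877) in library 19 and 2.30 to 2.82 in the other 5. That of Dusp10 to Dusp2 was 0.368 (0.329 to 0.411) in library 19 and 0.981 to 1.70 elsewhere. By contrast, the pair with their highest levels in library 19 differed less: Dusp6 to Dusp2 was 1.25 in library 19 and 1.58 to 2.24 in the others. Of the 7 members tested, 3 were lowest and 2 highest in library 19, beside 14% of all genes tested that were lowest and 14.6% that were highest there. Dusp2, Dusp6 and Dusp11 were lowest in library 23, as were 21.9% of all genes. Dusp1 made up 44.4% of the members' summed RPKM in library 19 and 60.2% to 69.3% in the others. The summed exon level was lowest in library 19 (1061 CPM) and highest in library 20 (1814 CPM), a ratio of 1.71 that was 1.36 without library 19. Without Dusp1 the sum ranged from 552 to 658 CPM.

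**Figure D3:**
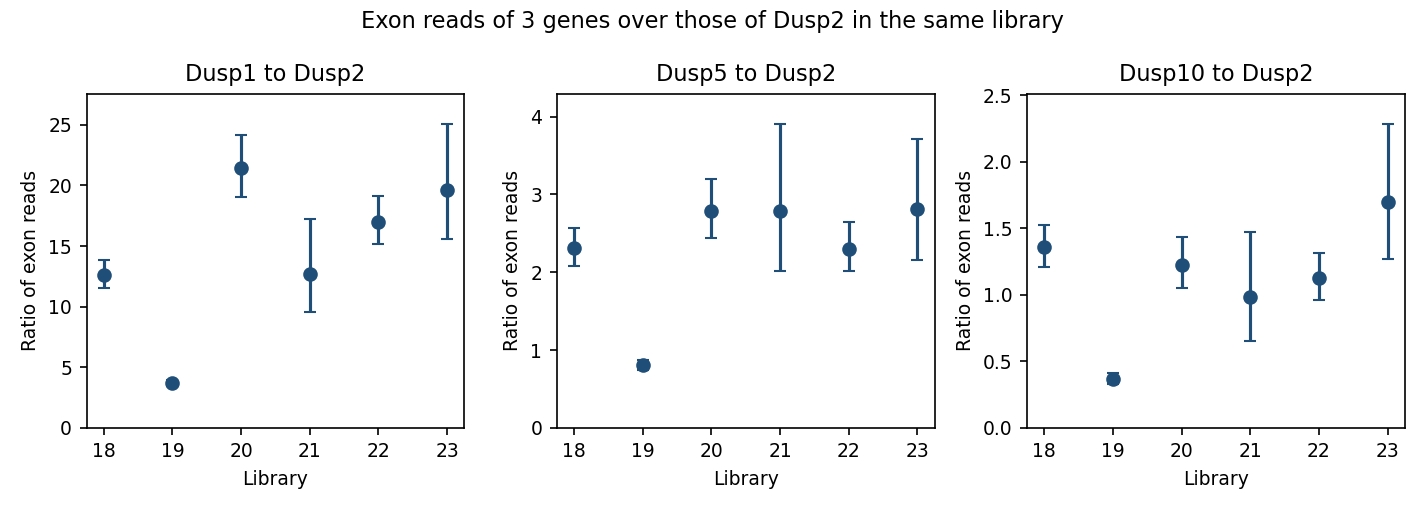
Exon reads of Dusp1, Dusp5 and Dusp10 divided by those of Dusp2 in the same library (linear axes from 0), with 95% exact intervals. Library 19 gives the lowest point in each panel, at 3.69, 0.805 and 0.368.

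Reads on introns, which include unspliced RNA, made up very different shares of the members' reads. The share was highest for Dusp10 (median over libraries 86.8%), Dusp4 (75.6%) and Dusp5 (74.1%), and lowest for Dusp6 (4.57%) and Dusp1 (2.23%). Dusp12 (30.6%), Dusp11 (18.6%) and Dusp2 (13.5%) lay between. With reads pooled over the libraries, the median share over all genes tested on exon reads was 39.1%. Only 2.75% of them had a larger pooled share than Dusp10 (86.3%). Intron length differs widely between members: the part of the gene outside the deposited exons is 59293 bases in Dusp10, 10850 in Dusp5, 233 in Dusp1 and 215 in Dusp2. Per kilobase, intron reads were 145% as dense as exon reads in Dusp2 (median), 86.4% in Dusp4, 65.1% in Dusp5, 33.9% in Dusp10, 26.4% in Dusp1, 14.8% in Dusp11, 13.0% in Dusp12 and 9.17% in Dusp6. In Dusp1 the 233 bases outside the deposited exons are fewer than the 940 intron bases of the coding transcript, since exons of other transcripts cover part of its introns, and reads there count as exon reads. The same holds for Dusp2, with 215 bases against 601, so its high density rests on a short stretch. Dusp10 differs in the other direction: its 59293 bases exceed the 38464 intron bases of its coding transcript. Its density therefore depends on the length used.

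The share of intron reads set library 19 apart for Dusp1 and Dusp11 and, in the other direction, for Dusp10. For Dusp1 the share was 5.48% (95% Wilson interval 4.87% to 6.17%) in library 19 and 1.91% to 2.65% in the other 5. Its intron reads numbered 165, 258, 125, 18, 105 and 29 in libraries 18 to 23. Per 1000000 intron reads of the library they were 28.1 intron CPM in library 19 and 17.7 to 23.3 elsewhere, so the library with the lowest exon level had the highest intron level. The ratio of highest to lowest intron level of Dusp1 was 1.59 (1.08 to 2.42; chi-square test, adjusted p = 0.0463), and without library 19 it was 1.32 and did not pass (adjusted p = 0.77). It also did not pass without library 18 (adjusted p = 0.0699), without library 23 (0.0788) or when scaled to exon library sizes (0.0894).

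For Dusp10 the share of intron reads was 78.7% (76.9% to 80.4%) in library 19 and 86.3% to 89.5% in the others. Intron reads numbered 4353, 1642, 3092, 431, 2371 and 823 in libraries 18 to 23, which is 179 intron CPM in library 19 against 501 to 569 in the other 5. Its intron levels spanned a ratio of 3.19 (3.01 to 3.37; chi-square 2026), wider than the 1.99 of its exon reads, and it was 1.13 without library 19. For Dusp5 the share stayed between 72.0% and 75.7%, and its intron level was lowest in library 19 at 330 intron CPM against 400.3 to 476 elsewhere (ratio 1.44, 1.29 to 1.61; chi-square test, adjusted p = 2.43e-33). Over all gene reads the share on introns was 47.6% in library 19 and 45.5% to 50.6% in the others, so library 19 was not at an extreme in this respect.

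Dusp2 had its highest intron level, as its highest exon level, in library 19, at 22.0 intron CPM (202 reads) against 6.70 to 13.3 elsewhere (ratio 3.28, 1.79 to 6.67; chi-square test, adjusted p = 3.33e-13). Without library 19 the ratio was 1.99 (adjusted p = 0.0262). Dusp11 was also highest there, at 84.6 intron CPM against 51.1 to 62.2 (ratio 1.65; chi-square test, adjusted p = 5.94e-10), although its exon level was not, and without library 19 it did not pass (ratio 1.22, adjusted p = 0.818). Its share of intron reads was 23.5% (22.1% to 24.9%) in library 19 and 16.6% to 19.3% elsewhere. Dusp4 had more intron than exon reads, with 45, 49, 93, 9, 35 and 20 in libraries 18 to 23, and its intron level was highest in library 20 (ratio 3.14, 2.20 to 4.53; chi-square test, adjusted p = 3.97e-12). Dusp12 did not pass (adjusted p = 0.152), and Dusp6, with 196 intron reads, was not tested. In all, 6 of 7 members tested on intron reads passed, beside 86.2% of 8607 genes, and 4 spanned over 2-fold, beside 46.6%. Intron levels were lowest in library 19 for 3 of the 7 (Dusp4, Dusp5 and Dusp10; 14% of all genes) and highest there for the other 4 (26.7%), which included Dusp12.

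**Figure D4:**
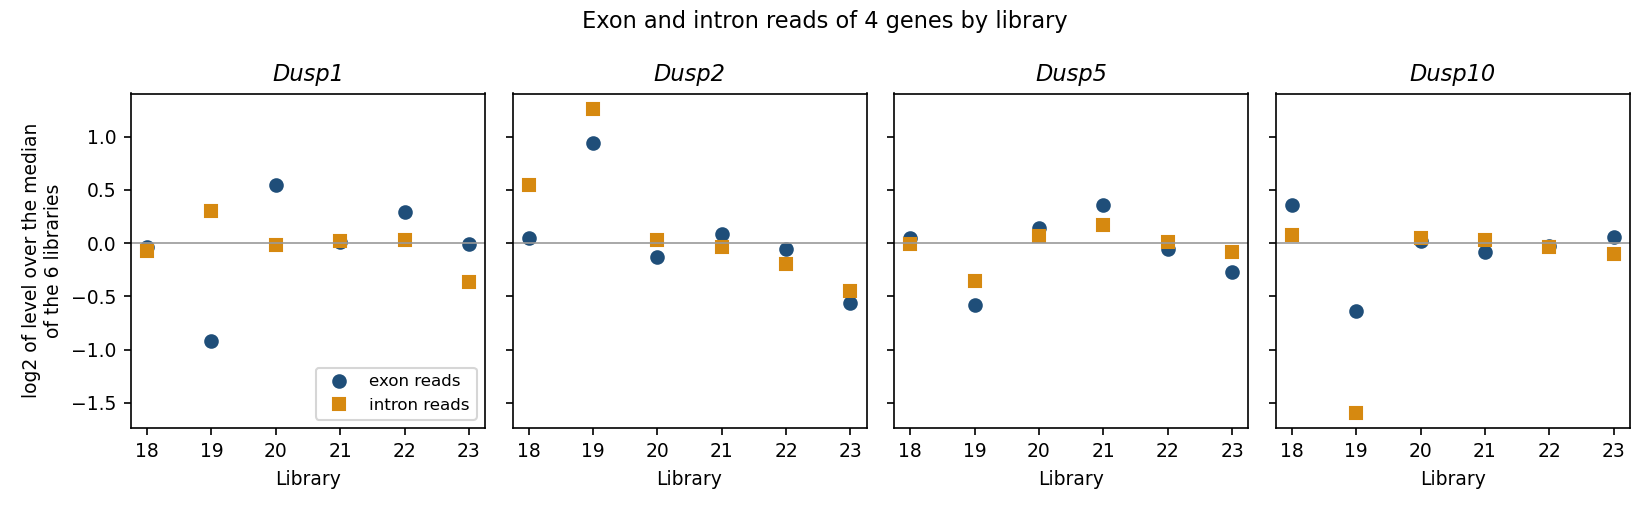
Exon reads (circles) and intron reads (squares) of Dusp1, Dusp2, Dusp5 and Dusp10 in each library, as log2 of the level over its median of the 6 libraries. In library 19 both kinds of read are high for Dusp2 and low for Dusp5 and Dusp10, while for Dusp1 exon reads are low (419 CPM) and intron reads high (28.1 intron CPM).

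The reads of overlapping genes cannot be told apart where strand was not used, and no source used here states its use. In GENCODE M21 Dusp10 overlaps 1700056E22Rik on the other strand over 1272 bases, and that gene had 2 to 57 exon reads per library. Dusp12 overlaps Gm9929 over 8224 bases (0 to 2 reads) and Gm26620 over 476 bases (0 to 5 reads). Dusp11 overlaps Gm19265 over 45 bases (0 to 26 reads), and Dusp5 overlaps an antisense transcript over 547 bases that was not analysed here.

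Other genes of the cascade, listed with earlier results of these data known, mostly stayed within a 2-fold range, except for the early-response genes, of which 4 of 19 did. Of all genes tested only 27.1% spanned more than 2-fold, so staying within that range is common and not particular to these lists. The list named immediate early genes holds 25 transcription factor and other genes. Many are switched on within minutes of signalling, but this does not hold for all, among them Elk1, Elk3 and Elk4. Of the 25, 19 were tested, 17 passed and 15 were lowest in library 19, beside 14% of all genes tested that were lowest there. The 4 within a 2-fold range were Elk3, Elk4, Myc and Srf. They summed to 3161, 1750.5, 5482, 4886, 5627 and 5565 CPM in libraries 18 to 23 in turn. Fos, an AP-1 subunit gene, ranged from 103 to 994 CPM, Fosb from 41.9 to 554 CPM, Jun from 119 to 943 CPM and Klf6 from 188 to 942 CPM, each lowest in library 19. The summed levels of these genes, of the B cell markers and of the erythroid markers were lowest in libraries 18 and 19, but single genes differed: Myc (60.6 CPM) and Elk4 (315 CPM) and the B cell marker Cd22 (9.52 CPM) were highest in library 18, and the B cell marker Cd79b was lowest in library 23 (1.05 CPM). By contrast, of the members lowest in library 19, Dusp1 was next lowest in library 18 (773 CPM, close to libraries 21 and 23), Dusp5 lay within the range of the others there and Dusp10 was highest there. Their part in the members' levels was not tested.

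Among the MAP kinases, 5 of 8 tested passed. Mapk14, which encodes p38 alpha, had a median of 89.2 CPM (chi-square test, adjusted p = 0.00545), Mapk9, which encodes JNK2, 120.2 CPM and the related kinase gene Nlk 119.9 CPM. Of the kinases that activate them, 3 of 6 tested passed, with Map2k4 (median 78.9 CPM), Map2k2 (55.9 CPM), Map2k1 (41.8 CPM) and Map2k3 (36.6 CPM) the most abundant. One tier higher, 11 of 13 passed, with Map3k1 (265 CPM), Map3k2 (120.1 CPM) and Braf (96.2 CPM) among the most abundant, and 12 of the 13 stayed within 2-fold. Ras proteins and regulators had 14 of 15 passing, with Rasgrp1, the diacylglycerol-responsive Ras activator of T cells, at a median of 539 CPM, Rasa1 at 369 CPM, Rasal3 at 295 CPM and Grb2 at 211 CPM. Rasgrp1 ranged from 434 CPM (library 23) to 727 CPM (library 19). Kinases downstream of the MAP kinases had 8 of 9 passing, and Rps6ka3 (461 CPM), Rps6ka1 (295 CPM), Mapkapk2 (139.8 CPM) and Mknk2 (88.7 CPM) led.

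Other brakes of the cascade had 10 of 12 passing and 9 within 2-fold. Their most abundant members were the phosphatase genes Ptpn22 (299.9 CPM), Ppp2ca (255 CPM) and Ptpn7 (176 CPM), the last of which encodes a MAP kinase tyrosine phosphatase of blood cells, and Gps2 (93.7 CPM). Of 20 other dual-specificity phosphatase genes only 5 had enough reads to be tested and 3 passed. Ssh2 and Ssh1, which encode phosphatases of the actin regulator cofilin, had medians of 302 and 94.9 CPM, and Dusp7, a cytoplasmic ERK phosphatase gene, 43.7 CPM (36.2 to 47.4; adjusted p = 0.138). Dusp16, a JNK and p38 phosphatase gene, had a median of 9.01 CPM, and no read of Dusp21 was found in any library. Over these lists 71 of 87 genes tested passed, beside the 71.6% of all genes.

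For each member with at least 200 reads, the 3 genes with the most similar pattern over the 6 libraries were found by the root mean square difference of log2 CPM after centring each gene on its mean, among 6313 other genes with a mean of at least 20 CPM (6314 for Dusp12). These are descriptions over 6 libraries that differ in depth, and all genes share the same scaling. Each library counts equally in the measure, whatever its depth. Nearest to Dusp1 were the clock gene Per1 (difference 0.13 on the log2 scale), the mitochondrial chaperonin gene Hspe1 (0.15) and the G protein regulator gene Rgs2 (0.17), all lowest in library 19. Nearest to Dusp2 were Gdf11 (0.14), Cd38 (0.17) and the ATP receptor gene P2rx7 (0.17), all highest in library 19 and lowest in library 23. Dusp6 was matched most closely by Mob3a (0.06), Crebrf (0.07) and Rcbtb2 (0.07), also highest in library 19 and lowest in library 23.

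Among the genes nearest to Dusp5 were Cacybp (0.08) and Rpl9 (0.09), each lowest in library 19 and highest in library 21. Dusp10 was nearest to Nrp1 (0.07), Atp5l (0.10) and Rpl15 (0.10), each lowest in library 19 and highest in library 18. Dusp11, which scarcely varied, was nearest to Wrn (0.01), Rybp (0.02) and Prkca (0.02), and the nearest genes to Dusp12, Dym (0.26), Mrpl17 (0.35) and Atg7 (0.36), matched it less closely. Between members, the smallest difference was that of Dusp6 and Dusp11 (0.24), followed by Dusp5 and Dusp10 (0.26) and Dusp2 and Dusp6 (0.29), while Dusp1 and Dusp2 differed by 0.85. The measure is small where both genes vary little. In library 19 the centred log2 level was 0.38 for Dusp6 and -0.02 for Dusp11, so their small difference does not show a shared pattern.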

How the data were processed

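RNA of sorted splenic iNKT cells was sequenced in 6 libraries, and a single deposited table stacks them by library name. Per the labels' protocols, a QIAseq UPXome kit was used for the libraries, and the submitters' processing notes name the builds GRCm38 and mm10. Not given in the sources used here are the aligner, the counting tool and the use of strand. Per the file headers, the deposited values used are whole exon read counts, the fraction of each gene's reads on introns, and RPKM scaled by the authors. The deposited RPKM implies depths above the exon totals (17461331 against 8020374 reads in library 18). The table's 11 other columns of values per library were not used.

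Intron reads were recovered from the exon count and the deposited fraction, and 99.99% came out whole within 0.01 reads. CPM used TMM factors from edgeR 4.0.16 (R 4.3.3) on 9510 genes kept by filterByExpr. Exon counts were tested against these library sizes, and intron reads against each library's total of intron reads, by a chi-square test with 5 degrees of freedom on genes with at least 200 reads, with Benjamini-Hochberg adjustment over all tested genes and a threshold of 0.05. Reads copied by PCR are not independent, so tests and intervals cover counting error only. The edgeR quasi-likelihood comparison of genotypes that was planned could not be run without matched libraries.

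The members and lists were chosen with earlier results of these data known. Named genes are all members, up to 4 genes of highest median CPM per pathway list, the 3 genes most like each member (log2 CPM with a prior count of 2, predicted genes left out), and the leading markers. Some genes taken by these rules are not reported here. Any other gene named was chosen after its values were seen. Alternatives were DESeq2 1.42.0 size factors, other totals and read minimums, deposited RPKM, and leaving out each library.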

Additional observations from a re-analysis of the deposited data

Results flagged for a closer look

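The 6 libraries were treated as a single set, since none has a genotype, and 17 quantities were checked for a library whose gap to its nearest neighbour took an unusually large part of the whole range (over 0.625 of it). For 6 normally distributed values of equal spread, chance alone flags about 1 in 20 such sets. Counting error differs between these libraries, so that rate is only a rough guide here. Library 19 stood apart in 3 of them. Its exon level of Dusp2 was 114 CPM, with the next highest at 62.8 CPM. Its intron level of Dusp10 was 179 intron CPM, with the next lowest at 501. Its intron level of Dusp11 was 84.6 intron CPM, with the next highest at 62.2. Library 21, the shallowest, stood apart for Dusp12, with 0 intron reads, which allows up to 3.84 intron CPM, and the next lowest at 5.54.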

How the results depend on the processing

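The number of members that varied beyond counting error was 6 of 7, and it was 5 to 7 under every other scaling, read minimum and left-out library that was run. The ratio of highest to lowest summed level was 1.71. It was 1.65 on total exon reads, also 1.65 on that total without mitochondrially encoded genes and Lars2, 1.64 with TMM on all genes with a read, 1.52 on deposited RPKM and 1.19 without Dusp1. Leaving out a library in turn gave 1.36 (without library 19) to 1.71. Intron reads of 6 of 7 members varied, and 4 to 6 did so when each library was left out or when intron reads were scaled to exon library sizes. Dusp1 lost its intron call under that scaling and without library 18, 19 or 23, and the cause was not tested. The order of the medians per length was the same for all 28 pairs of members under each length used. Every one of these settings divided by a length. On median CPM, without such division, Dusp11 (243 CPM) stood above Dusp5 (136 CPM) and Dusp6 (109 CPM). Dusp10 (65.1 CPM) then stood above Dusp2 (59.2 CPM). At a minimum of 50 reads, 81 of 100 pathway genes passed, beside 71 of 87. The depth of library 21 limits Dusp4 and Dusp12, which had 3 and 2 reads there. No paired analysis was possible because the libraries carry no replicate number or genotype, and the comparison of genotypes with DESeq2 was not run for the same reason.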

Other observations

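Mapk9, the JNK2 gene, was chosen after its values were seen. Its exon level was 551 CPM in library 21 (95% exact Poisson interval 502 to 604, 457 reads) and 95.4 to 138 CPM in the other 5 libraries. Its intron level in library 21 was 88.2 intron CPM, within the 74.5 to 95.04 of the others, so that 13.1% of its reads there fell on introns, against 37.9% to 46.3% elsewhere.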
